A study of Mus musculus with 14 samples.

Results

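The mRNAs of nuclear-encoded respiratory chain subunits were followed in the whole mouse uterus at 3.5 days of gestation. Members were all probe sets whose only gene symbol in the platform annotation began with Nduf, Uqcr, Atp5, or Cox followed by a digit. The rule found 188 probe sets for 94 genes among 45037 non-control probe sets, and 158 of them, for 89 genes, were among the 22519 probe sets bright enough to be tested (mean log2 signal at or above the median, a signal of 134). The tested genes were 33 of 34 for complex I, 8 of 8 for complex III, 13 of 17 for complex IV, 17 of 17 for complex V, and 18 of 18 assembly factors and related genes. Probe sets carrying several symbols were not used here.

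The 14 arrays form 4 groups of C57BL/6 females. Control females were wild type and KO females lacked Folr4 (Folr4-/-), a gene of the folate receptor family that the array annotation lists as Izumo1r. Each genotype was injected with saline (4 control, 3 KO uteri) or with folinic acid, a reduced folate (3 control, 4 KO uteri). Folinic acid females had 2 intraperitoneal doses of 12.5 mg/kg each, the first 10 days and the second 3 days before mating. All uteri were taken at day 3.5, around the time the embryo attaches, from mice on a chow diet, and the comparisons ask how genotype and preconception folate act on uterine gene expression. The labels call the replicates biological. What the shared numbers in some sample titles stand for is not stated, so p-values here measure the spread between these arrays.

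Complex I passes electrons from NADH to ubiquinone, complex III passes them on to cytochrome c, and complex IV hands them to oxygen, while complex V uses the resulting proton gradient to make ATP. Most subunits are encoded in the nucleus, made in the cytosol and imported, and they are joined in the inner membrane by assembly factors to core subunits encoded in mitochondrial DNA. Their genes are known to be transcribed together under nuclear respiratory factor 1 (NRF1), the ETS factor GABP, the estrogen-related receptors (ERR), YY1 and SP1, and in the uterus the chain supplies ATP to contractile, secretory and proliferating cells.

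Array-wide values bear on every result below. Mean array signals ran from 757 to 881, at 845 to 881 on the KO saline arrays and 757 to 798 on the KO folinic acid arrays, with no overlap. Marker sums of smooth muscle (67500 to 134000), epithelium (19800 to 44600) and endometrial stroma (32900 to 58900) were present on every array, as the labelled tissue would have. The probe set for the deleted gene lay below the filter in every group, at 13.5 to 72.4 on control arrays and 6.14 to 70.2 on KO arrays, so it does not check the genotype labels. The fit called 1 probe set of all those tested in each of 4 comparisons, none of them a member. They were Erdr1 in the 3 genotype comparisons and a probe set carrying several symbols for folinic acid averaged over genotypes. On this platform, probe set names ending in _x_at or _s_at mark probes that may also match related transcripts, so values from them are uncertain for genes with close copies or pseudogenes.

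Promoter sequences are shown for 6 genes whose signals are described below, to set genes with and without an exact match to the factors' motifs side by side. The stretch ends at the base before the start site, 5′ to 3′ on the gene's strand, from RefSeq (build GRCm38.p6), and capitals mark motif matches on either strand.
Ndufc2, chr7:97399903-97400002, plus strand: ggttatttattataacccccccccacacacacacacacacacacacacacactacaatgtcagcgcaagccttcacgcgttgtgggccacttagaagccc
Uqcrh, chr4:116075071-116075170, minus strand: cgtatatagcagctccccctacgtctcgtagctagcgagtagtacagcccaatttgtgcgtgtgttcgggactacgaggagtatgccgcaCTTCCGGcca
Cox5b, chr1:36691387-36691486, plus strand: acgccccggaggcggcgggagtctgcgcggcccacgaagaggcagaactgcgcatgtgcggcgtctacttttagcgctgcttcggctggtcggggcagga
Cox6a1, chr5:115348959-115349128, minus strand: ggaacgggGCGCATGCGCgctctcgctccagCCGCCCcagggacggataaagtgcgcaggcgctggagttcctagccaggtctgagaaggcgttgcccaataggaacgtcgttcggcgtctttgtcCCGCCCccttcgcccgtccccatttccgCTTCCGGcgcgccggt
Cox7a2, chr9:79759854-79759953, minus strand: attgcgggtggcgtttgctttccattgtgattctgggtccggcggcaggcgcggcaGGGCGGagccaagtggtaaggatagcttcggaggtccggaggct
Atp5g3, chr2:73911327-73911426, minus strand: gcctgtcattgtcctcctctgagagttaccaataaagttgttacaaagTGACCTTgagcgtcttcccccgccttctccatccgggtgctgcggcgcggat

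The 5 motifs searched, on both strands and with overlaps allowed, were NRF1 (its palindromic core), ETS (CCGGAAG), ERR (AAGGTCA), YY1 (AAGATGGC) and SP1 (GGGCGG). A promoter window was held for 77 of the 94 genes, and the 250 bases before each start were searched. NRF1 letters stood in 4 of 77 genes (5.195%; Cox6a1, Atp5g2, Atp5k and Ndufaf4) against 0.877% of 27025 genes in the reference table. ETS letters stood in 16 (20.78%) against 7.826%, and SP1 letters in 35 (45.45%) against 35.36%. ERR letters were held by 5 genes (6.494% against 4.703%) and YY1 letters by 2 (2.597% against 1.828%). Of the printed stretches, Cox6a1 held NRF1, ETS and SP1 letters, Uqcrh ETS, Cox7a2 SP1 and Atp5g3 ERR. Those of Ndufc2 and Cox5b held no exact copy of any of the 5. Only exact copies were counted, so a near match, such as gcgcatgtgc in the Cox5b stretch for NRF1, was left out. These are matches of letters in a window, given as a description.

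Subunit signals were lower after folinic acid in KO uteri than after saline, across all 4 complexes, but no single probe set passed the adjusted threshold. Complex I stood at 0.13 ± 0.07 (SD, n = 3) after saline and -0.09 ± 0.16 (n = 4) after folinic acid, where the level is the median over its genes of log2 signal minus each gene's mean over the 14 arrays. For complex III the levels were 0.19 ± 0.03 and -0.17 ± 0.09, for complex IV 0.16 ± 0.07 and -0.15 ± 0.10, and for complex V 0.14 ± 0.05 and -0.14 ± 0.05. In controls, complex IV stood at 0.08 ± 0.04 (n = 4) after saline and -0.09 ± 0.06 (n = 3) after folinic acid. The means of the other 3 complexes lay between -0.03 (complex I after folinic acid) and 0.01 in both control groups. For complexes I, III and V the SDs were 0.08, 0.24 and 0.23 after saline and 0.06, 0.09 and 0.02 after folinic acid. Control saline replicate 3 stood at -0.37 for complex III and -0.35 for complex V. The other control saline arrays stood at 0.09 to 0.14 and 0.06 to 0.14. Each of complexes III, IV and V was higher on all 3 KO saline arrays than on all 4 KO folinic acid arrays. Complex I overlapped in KO uteri because KO folinic acid replicate 2 stood at 0.14. Complex IV was apart in controls too, at 0.03 to 0.12 on saline arrays and -0.17 to -0.04 on folinic acid arrays. Complexes I, III and V overlapped in controls. In bulk tissue, fewer cells of a type and less RNA per cell cannot be told apart.

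**Figure D1:**
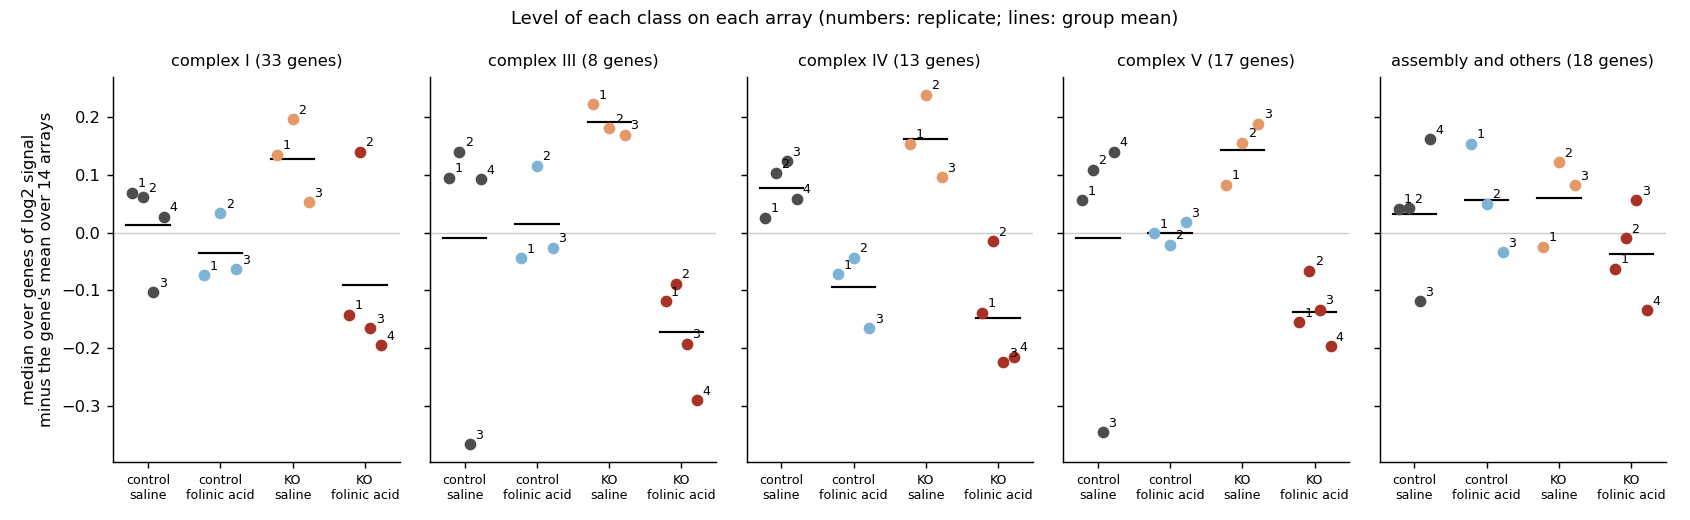
Level of each complex and of assembly factors and others on each of the 14 arrays (vertical axis, median over genes of log2 signal minus the gene's mean; points are numbered by replicate and lines are group means). For complexes III, IV and V all 3 KO saline arrays lie above all 4 KO folinic acid arrays. For complex IV all 4 control saline arrays also lie above all 3 control folinic acid arrays. KO folinic acid replicate 2 is at 0.14 for complex I, and control saline replicate 3 is at -0.37 for complex III and -0.35 for complex V.

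Gene by gene, the response of KO uteri was measured as a fitted log2 difference (folinic acid minus saline, limma) in 1 probe set per gene, the brightest. Of the 71 subunit genes, 68 were below 0, with a median of -0.27, where all probe sets tested had a median of 0.01. Counting the assembly genes too, 79 of 89 genes were below 0 (88.8%) against 49.8% of all genes tested. None of the 158 member probe sets passed an adjusted p of 0.05, and 0% of all probe sets did. At an unadjusted p under 0.05, 43 members were lower (27.2%) against 6.75% of all probe sets, and 3 were higher (1.9%) against 6.07%. Groups did not overlap for 38 members in the lower direction (24.1%, against 5.69% of all) and for 2 in the higher direction (1.27% against 4.65%). The count of 43 was 22 without KO saline replicate 2, 27 without KO folinic acid replicate 4 and 23 after quantile normalization, where 6.1% of all probe sets were lower. Without KO folinic acid replicate 2 it was 61 (38.6%, against 9.45% of all), and 8 members passed the adjusted threshold (5.06%) against 2.94% of all probe sets. Those 8 were the 3 probe sets of Ndufc2, a pair of Cox5b and 1 each of Cox6b2, Atp5j2 and Ndufs8, all lower. With limma's array weights 1 member passed (Cox5b), against 0.457% of all probe sets.

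**Figure D2:**
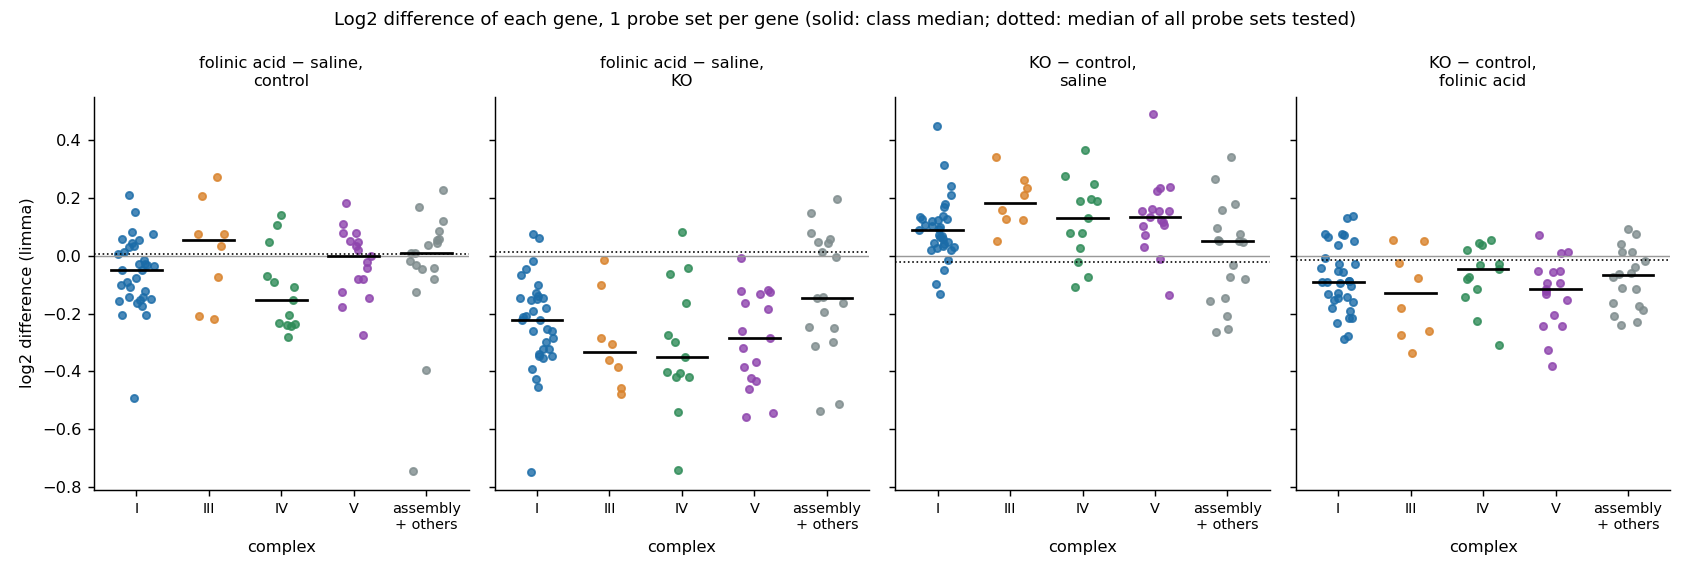
Fitted log2 difference of each of the 89 genes (points, 1 probe set per gene) in the 4 pairwise comparisons, by complex; solid lines are class medians and the dotted line is the median of all probe sets tested. In KO uteri after folinic acid the medians of complexes I, III, IV and V are -0.22, -0.33, -0.35 and -0.28, and under saline the KO minus control medians are 0.09, 0.18, 0.13 and 0.14.

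Complex I had a median log2 difference of -0.22 after folinic acid in KO uteri, with 31 of 33 genes below 0. The 6 core subunits measured, which carry the flavin and iron-sulphur clusters or line the quinone site, had a median of -0.29 and all lay below 0. The 27 supernumerary subunits, which surround the core, had a median of -0.21 with 25 below 0. Ndufc2, a small membrane-arm subunit, had the smallest p of the complex. Its signals, printed like all signals here to 3 significant digits, were 19600, 21300 and 19400 on the KO saline arrays and 10100, 15300, 13000 and 10200 on the KO folinic acid arrays. Control signals were 11300, 18300, 16900 and 13300 after saline and 12400, 12200 and 16800 after folinic acid. All 3 KO saline arrays therefore lay above every other array of the study. The folinic acid to saline ratio in KO uteri was 0.596, a log2 difference of -0.75 ± 0.19 (SE), with an adjusted p of 0.151 (limma). The other 2 tested probe sets of Ndufc2 gave -0.68 and -0.80.

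Among the core subunits, Ndufv1, which binds NADH through its flavin, read 3530, 3390 and 3220 on the KO saline arrays and 2440, 3470, 2620 and 2560 on the KO folinic acid arrays. All but replicate 2 of the folinic acid arrays were below the saline arrays, and the difference was -0.30 ± 0.15 (adjusted p = 0.410, limma). Ndufs1, the largest core subunit, was at 1680, 1750 and 1580 against 1370, 1760, 1560 and 1350, again with replicate 2 the highest of its group and the groups overlapping (-0.15 ± 0.15). Ndufs5, a supernumerary subunit of the intermembrane side, read 2780, 2960 and 2740 against 2390, 2500, 2030 and 2050, without overlap (-0.34 ± 0.13, adjusted p = 0.313, limma). The genes of complex I above 0 were Ndufc1 (0.08) and Ndufa6 (0.06).

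For complex III, 8 of 8 genes lay below 0 with a median of -0.33. The 5 small supernumerary subunits had a median of -0.38, and Uqcrb, which stabilizes the complex near the quinone site, had the smallest p. Uqcrb signals were 33800, 38600 and 31700 on the KO saline arrays and 24100, 25400, 28700 and 21600 on the KO folinic acid arrays. Control saline arrays read 28100, 30200, 31500 and 27800, and control folinic acid arrays 24200, 24400 and 27200. Saline and folinic acid did not overlap in either genotype, with log2 differences of -0.48 ± 0.12 in KO (adjusted p = 0.1497, limma) and -0.22 in controls (adjusted p = 0.999995). The control difference was 0.0082 after quantile normalization. A second tested probe set of Uqcrb read 0.03 in KO uteri and 0.05 in controls.

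Uqcr10, another small subunit, was at 3620, 3630 and 3440 after saline and 2870, 3020, 2720 and 2350 after folinic acid in KO uteri, without overlap (-0.38 ± 0.15). Of its 3 tested probe sets this was the only 1 lower, and the other 2 were above 0, the highest at 0.19. The core proteins Uqcrc1 and Uqcrc2, which face the matrix, had differences of -0.10 ± 0.17 and -0.36 ± 0.20. Uqcrc2 read 6080, 4580 and 5340 after saline and 3150, 6160, 3960 and 3800 after folinic acid, with replicate 2 the highest of both groups. Uqcrfs1, the Rieske iron-sulphur protein that passes electrons to cytochrome c1, differed by -0.01 ± 0.16 between groups that overlapped. Uqcrh, the hinge subunit that contacts cytochrome c1, read 19600, 20100 and 15100 after saline and 15000, 17000, 14000 and 13800 after folinic acid. KO saline replicate 3 lay among the folinic acid arrays, and the difference was -0.28 ± 0.15.

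**Figure D3:**
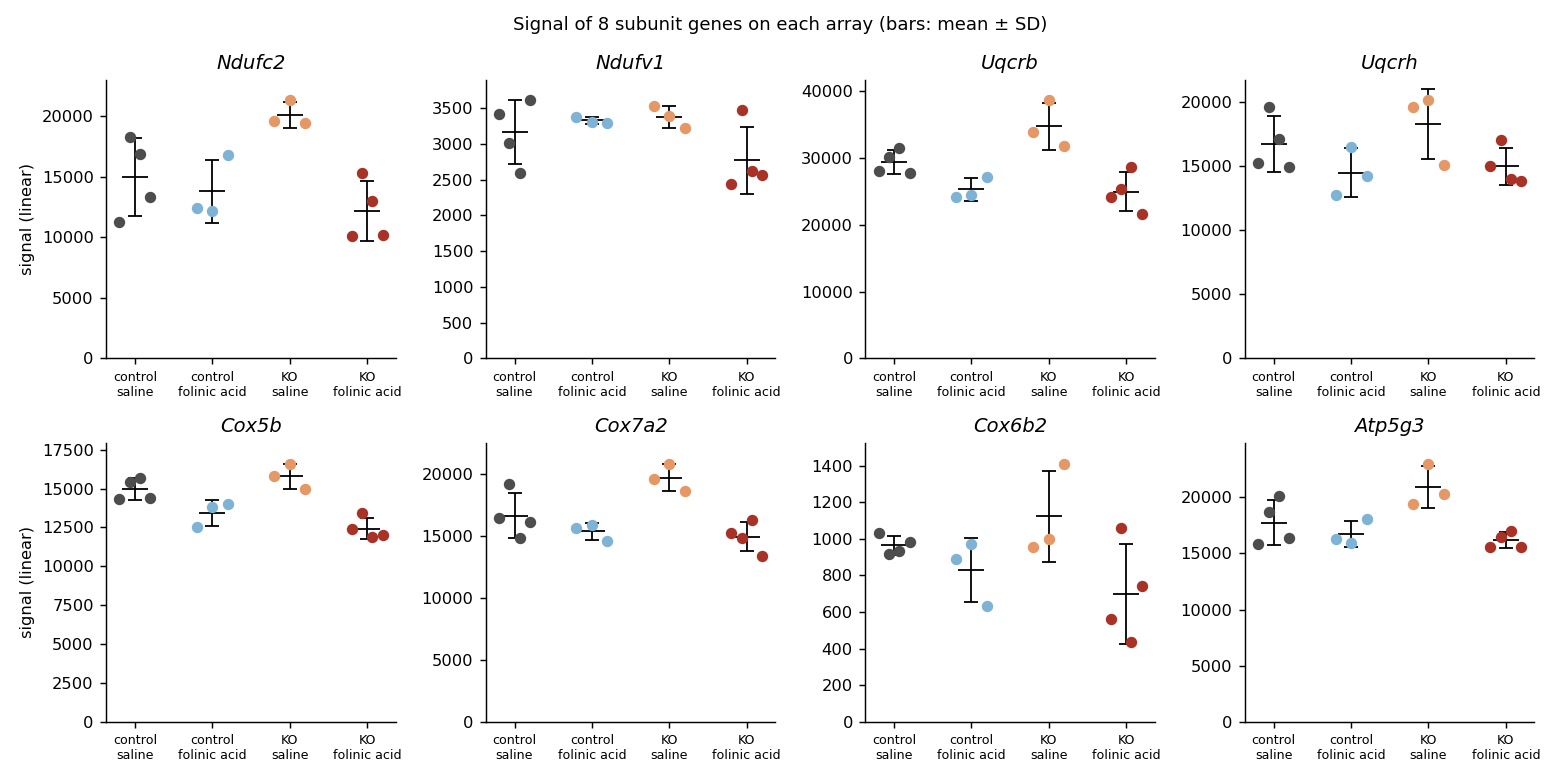
Deposited signal (linear scale from 0) of 8 subunit genes on each array, by group; points are arrays and bars are mean ± SD. For Ndufc2 the 3 KO saline arrays at 19400 to 21300 lie above all others, and for Cox5b, Cox7a2 and Atp5g3 the KO saline and KO folinic acid arrays do not overlap.

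Complex IV had a median of -0.35 with 12 of 13 genes below 0. The order of the 4 complexes depended on the scaling, since quantile normalization gave -0.17, -0.19, -0.119 and -0.124 for complexes I, III, IV and V. Its 10 widely expressed subunits had a median of -0.32. Cox5b, which binds a zinc ion on the matrix side, read 15800, 16600 and 15000 on KO saline arrays and 12400, 13400, 11900 and 12000 on KO folinic acid arrays. Control arrays were at 14300, 15400, 15700 and 14400 after saline and 12500, 13800 and 14000 after folinic acid. The groups were apart in both genotypes, with log2 differences of -0.35 ± 0.10 in KO (adjusted p = 0.205, limma) and -0.15 in controls. Of the other 4 tested probe sets of Cox5b, 3 gave -0.36, -0.43 and -0.53 in KO uteri, the last with the lowest adjusted p of any member (0.120, limma), and 1 dim probe set gave 1.25.

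Cox7a2, the widely expressed counterpart of the muscle isoform Cox7a1, was at 19600, 20800 and 18600 after saline and 15200, 14800, 16300 and 13400 after folinic acid in KO uteri, without overlap (-0.40 ± 0.12, adjusted p = 0.192, limma). Cox4i1, the subunit through which ATP regulates the enzyme, read 19400, 21900 and 18100 against 15700, 19900, 13200 and 16200, which overlapped through folinic acid replicate 2 (-0.30 ± 0.14). Cox5a, its partner that binds a thyroid hormone metabolite, differed by -0.16 ± 0.18. Cox6a1, a regulatory subunit, read 25800, 27600 and 25500 against 21300, 24000, 22100 and 19800 without overlap (-0.27 ± 0.12). After quantile normalization the Cox6a1 difference was 0.06. Ndufa4, named for complex I but now counted in complex IV, was at 6560, 8450 and 8110 against 6440, 5020, 5290 and 6290, again without overlap (-0.42 ± 0.17).

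The isoforms of complex IV tied to particular tissues were dim or variable. Cox6b2, a testis isoform, read 956, 1000 and 1410 after saline and 559, 1060, 433 and 741 after folinic acid in KO uteri, with replicate 2 inside the saline range (-0.74 ± 0.25, adjusted p = 0.258, limma). Without that replicate its adjusted p was 0.0346. Cox8b, of heart and skeletal muscle, ranged from 66 to 274 over the study and Cox8c, of testis, from 244 to 479. The groups overlapped for both, with KO differences of -0.54 ± 0.42 and -0.04 ± 0.23. Cox4i2, Cox6a2, Cox7a1 and Cox7b2, isoforms of lung, striated muscle and testis, did not pass the filter and were not tested.

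For complex V, 17 of 17 genes lay below 0 with a median of -0.28. The catalytic head was represented by 5 genes with a median of -0.28. Atp5a1 and Atp5b encode its alternating alpha and beta subunits, which form the nucleotide sites, and Atp5c1 the gamma shaft that turns inside them. Atp5a1 read 12400, 11400 and 10100 on KO saline arrays and 7680, 10400, 9350 and 8950 on KO folinic acid arrays (-0.32 ± 0.13). Atp5b was at 8380, 9190 and 12500 against 7970, 8190, 7800 and 8500 (-0.28 ± 0.18), and Atp5c1 at 9050, 11000 and 12300 against 10900, 9100, 8570 and 9860 (-0.16 ± 0.17). All of these pairs of groups overlapped.

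The c-ring, the proton-driven rotor, is made of the same mature protein from 3 genes. Atp5g1, Atp5g2 and Atp5g3 differed by -0.46 ± 0.20, -0.38 ± 0.15 and -0.37 ± 0.12 (adjusted p = 0.357, 0.316 and 0.235, limma). Atp5g3 read 19400, 23000 and 20300 on KO saline arrays and 15600, 16500, 17000 and 15600 on KO folinic acid arrays, and Atp5g1 2100, 2360 and 2560 against 1760, 1740, 1590 and 1710. Groups were apart for both, while Atp5g2 overlapped at 8540, 10700 and 9190 against 6620, 9190, 5700 and 7870. In the stalk and membrane part, 9 genes had a median of -0.13. Atp5md, a small subunit tied to dimer formation, was at 3290, 3990 and 3520 against 2280, 2550, 3230 and 1960, without overlap (-0.54 ± 0.19), and Atp5h, the stator subunit d, read -0.12 ± 0.12, which was 0.02 after quantile normalization.

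Assembly factors and related genes had a median of -0.14 with 11 of 18 below 0. The copper chaperone Cox17 differed by -0.16 ± 0.19, the haem A synthase Cox15 by -0.31 ± 0.16 and the supercomplex factor Cox7a2l by -0.19 ± 0.16. Cox15 was the gene of this class with the smallest p (adjusted p = 0.441, limma), at 495, 457 and 463 against 304, 434, 409 and 384 without overlap. Of its 3 tested probe sets 2 were lower and 1 was higher, at 0.37. Ndufa4l2, a paralog of Ndufa4 known from hypoxia, read 166, 223 and 299 against 169, 131, 133 and 204 (-0.51 ± 0.49). Of the 25 probe sets of this class, 1 was lower at an unadjusted p under 0.05, against 14 of 68 for complex I, 4 of 13 for complex III, 12 of 24 for complex IV and 12 of 28 for complex V. The share over all probe sets tested was 6.75%, and these counts take no account of brightness.

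Probe sets of the same gene did not always go together. Among 43 genes with several tested probe sets, all were lower in 26, all higher in 3 and mixed in 14 after folinic acid in KO uteri. The 3 members higher at an unadjusted p under 0.05 belonged to Ndufab1 (0.84 ± 0.22), Cox5b (1.25 ± 0.47) and Atp5c1 (0.62 ± 0.22), genes whose brightest probe set was lower. They were named after their values were seen.

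**Figure D4:**
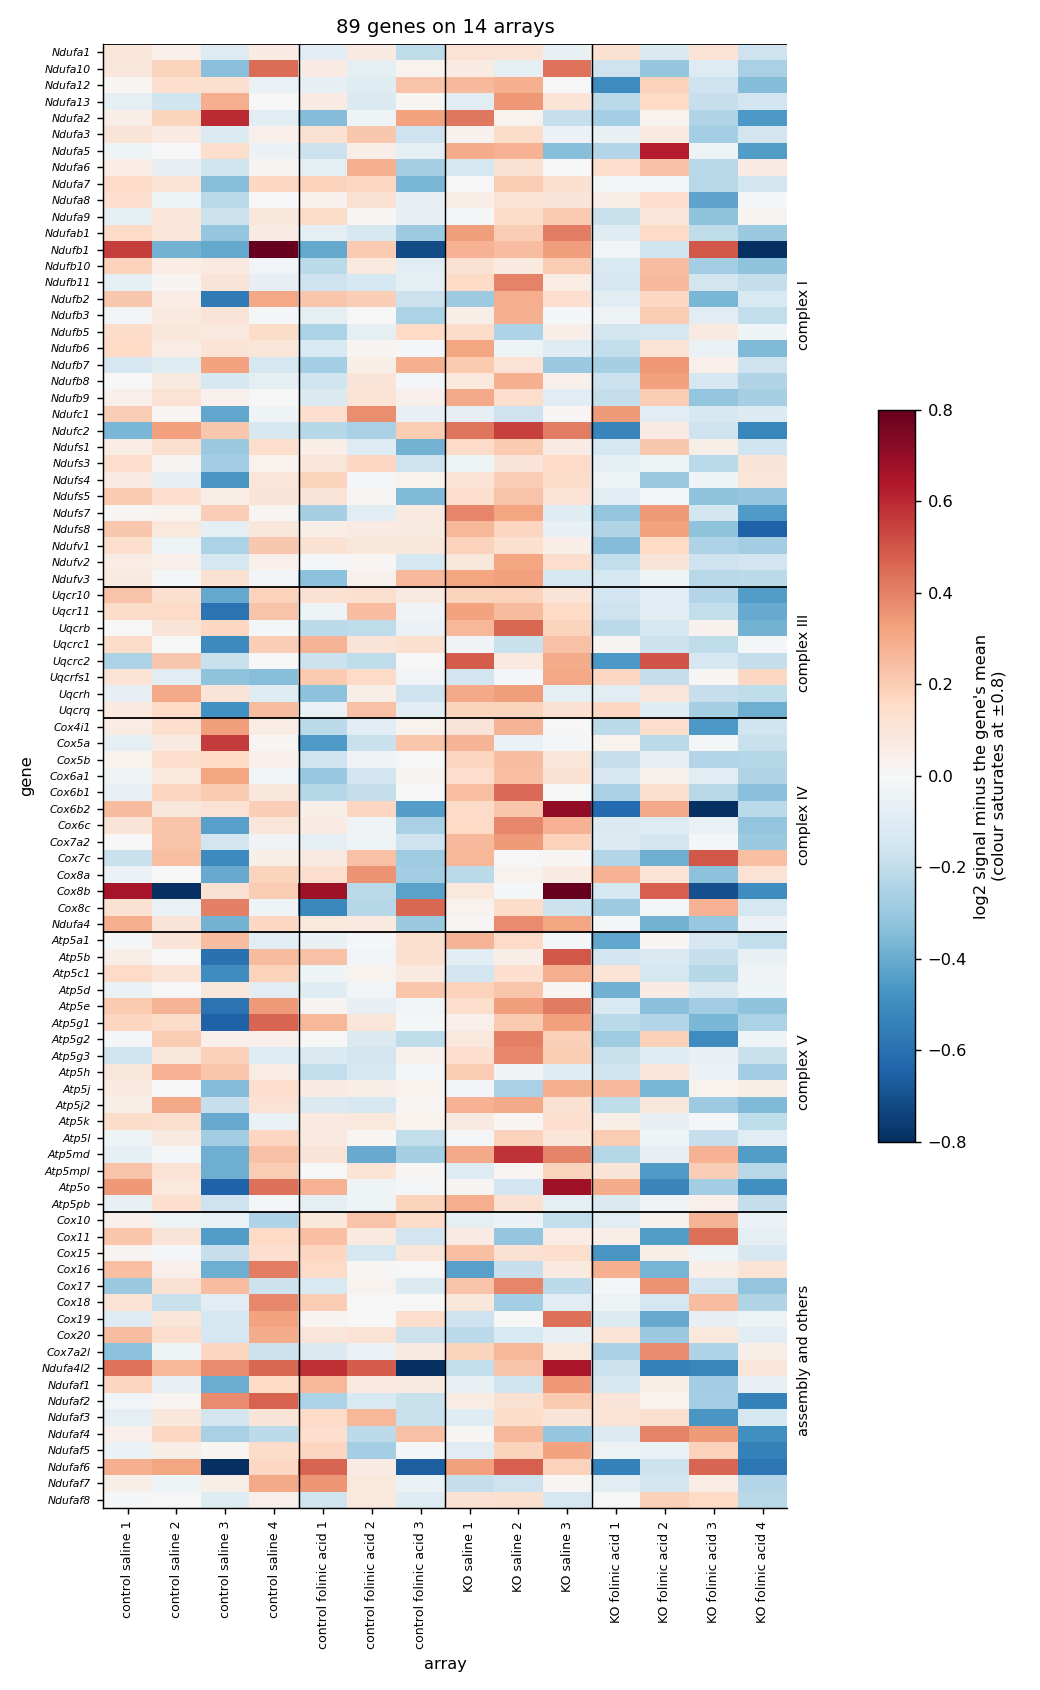
Log2 signal minus the gene's mean over all arrays (colour, saturating at ±0.8) for the 89 tested genes in rows, grouped by complex, on the 14 arrays in columns. KO saline columns are mostly above the mean and KO folinic acid columns mostly below it, with KO folinic acid replicate 2 above the mean for many genes of complex I.

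In control uteri the folinic acid medians were -0.05 for complex I, 0.05 for complex III, -0.15 for complex IV and -0.001 for complex V. Of 71 subunit genes 44 were below 0, and 32 after quantile normalization, which turned the median of the 71 from -0.05 to 0.02. None of the 158 members passed the adjusted threshold (0% of all probe sets). At an unadjusted p under 0.05, 2 were lower (1.27%, against 1.52% of all) and 2 higher (1.27% against 1.19%). Counting the assembly genes too, 52 of 89 genes were below 0 (58.4%) against 46.5% of all genes. Groups were apart in the lower direction for 10 members (6.33% against 2.56%) and in the higher direction for 3 (1.9% against 2.4%). Complex IV had 10 of 13 genes below 0, among them Cox5a (-0.28), Cox4i1 (-0.24) and Cox6a1 (-0.23). Its median was -0.03 after quantile normalization and -0.07 without control folinic acid replicate 3. Without control saline replicate 3 the complex III median was -0.11 and the complex V median -0.13.

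Individual genes of this comparison had adjusted p-values near 1 (limma). Atp5h, with the smallest p of complex V, read 12900, 14700, 14100 and 12700 after saline and 10600, 11100 and 12000 after folinic acid, without overlap (-0.28 ± 0.12). Cox6a1 was at 23000, 24900, 29100 and 23100 against 19000, 21100 and 23800, which overlapped. Ndufaf2, an assembly factor of complex I, was at 371, 381, 491 and 523 against 316, 348 and 334 without overlap (-0.39 ± 0.19). Ndufs5 read 2930, 2780, 2630 and 2720 against 2720, 2550 and 1990 in overlapping groups (-0.21). Ndufa4l2 differed by -0.75 through 1 array, control folinic acid replicate 3 at 42.8, where the other 2 stood at 285 and 267, and the difference was 0.15 without it.

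Under saline, subunit signals were higher in KO than in control uteri, by medians of 0.09 for complex I, 0.18 for complex III, 0.13 for complex IV and 0.14 for complex V, with 62 of 71 subunit genes above 0. No member passed the adjusted threshold, against 0.00444% of all probe sets. At an unadjusted p under 0.05, 7 members were higher (4.43%, against 1.3% of all) and 0 lower (1.81% of all). These were the 3 probe sets of Ndufc2 and 1 each of Atp5md, Ndufb11, Ndufab1 and Cox7a2. With the assembly genes, 17 of 89 were below 0 (19.1%) against 50.6% of all genes. Groups were apart in the higher direction for 13 members (8.23% against 2.06%) and in the lower direction for 0 (2.36% of all). The 7 became 4 without KO saline replicate 1 or 3, 2 without replicate 2 and 3 after quantile normalization. After that normalization 19 of 71 subunit genes were below 0, the median of the 71 went from 0.12 to 0.047, and the medians of complexes I, III, IV and V were 0.028, 0.11, 0.0095 and 0.060. With array weights 15 members were higher (9.49%, against 3.89% of all). Without control saline replicate 3, 23 were below 0 and the complex V median was 0.02. Without KO saline replicate 2, 17 were below 0 and the complex IV median was 0.04.

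For Ndufc2, all 3 KO saline arrays lay above the 4 control saline arrays at 11300 to 18300, with a log2 difference of 0.45 ± 0.19 (adjusted p = 0.9998, limma). Atp5md was at 3290, 3990 and 3520 in KO and 2530, 2640, 2040 and 3130 in control uteri after saline, also without overlap (0.49 ± 0.19). Uqcrb was apart as well (0.24 ± 0.12), though its other tested probe set was at -0.005. Cox7a2 overlapped with 1 control array at 19200 (0.25 ± 0.12). Cox20, an assembly factor of complex IV, had the smallest p of its class with a KO difference of -0.26 ± 0.15, at 2140, 2280 and 2380 against 2940, 2730, 2250 and 3040 in overlapping groups.

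After folinic acid the KO minus control medians had the opposite sign, -0.09 for complex I, -0.13 for complex III, -0.05 for complex IV and -0.11 for complex V, with 54 of 71 subunit genes below 0. No member passed (0.00444% of all did), and at an unadjusted p under 0.05, 4 were lower (2.53% against 2.3% of all) and 1 higher (0.633% against 1.51%). With the assembly genes, 67 of 89 were below 0 (75.3%) against 53.3% of all genes, and groups were apart in the lower direction for 14 members (8.86% against 3.05%). Leaving out 1 array moved the medians to between -0.16 (without KO folinic acid replicate 2) and -0.041 (without control folinic acid replicate 2) for complex I. The range was -0.20 (without KO folinic acid replicate 1) to -0.067 (without control folinic acid replicate 2) for complex III. Without control folinic acid replicate 3 the medians of complexes IV and V were -0.083 and -0.069. Uqcr10 had the smallest p of complex III at -0.34 ± 0.15, with control folinic acid arrays at 3470, 3500 and 3360 above all 4 KO arrays at 2350 to 3020. Atp5g1 was at 2460, 2190 and 2020 in control and 1590 to 1760 in KO uteri, apart as well (-0.38 ± 0.20). The 4 pairwise comparisons share their groups, so their values are not independent of each other.

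The interaction term tests whether the folinic acid difference itself differed between genotypes. Medians were -0.18 for complex I, -0.30 for complex III, -0.17 for complex IV and -0.28 for complex V, with 63 of 71 subunit genes below 0. No member passed and 0% of all probe sets did, the lowest adjusted p of a member being 0.905 (limma). At an unadjusted p under 0.05, 6 members were lower (3.8%, against 2.64% of all) and 1 higher (0.633% against 2.26%). With the assembly genes, 74 of 89 were below 0 (83.1%) against 51.8% of all genes. For Ndufc2 the interaction was -0.64 ± 0.27. A difference of response between the genotypes was therefore not established for any member. Averaged over genotypes, the folinic acid medians were -0.14, -0.17, -0.25 and -0.18 for complexes I, III, IV and V, with 34 members lower at an unadjusted p under 0.05 (21.5%, against 4.88% of all) and 4 higher (2.53% against 4.34%). Below 0 were 74 of 89 genes (83.1%) against 47.8% of all genes. No member passed, but 3 did with array weights (1.09% of all probe sets), where 60 were lower at an unadjusted p under 0.05 (38.0%, against 8.14% of all), and 2 without KO folinic acid replicate 2 (0.666%). The genotype medians averaged over injections were 0.001, 0.03, 0.02 and -0.002, and after quantile normalization all 4 were below 0. At an unadjusted p under 0.05 no member was higher or lower for genotype (0.684% and 1.31% of all), and 46 of 89 genes were below 0 (51.7%) against 53.1%.

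Differences of this kind also varied with brightness. Of the 158 members, 98 were in the brightest decile of the probe sets tested. In that decile the 2154 other probe sets had a median of -0.12 for folinic acid in KO uteri, 66.0% of them below 0, while the 98 members had a median of -0.26 with 91 below 0. For KO against control under saline the medians were 0.06 for the others and 0.11 for the members. Taken relative to the other probe sets of the same decile, a setting chosen after seeing the data, 62 of 71 subunit genes were still below 0 for folinic acid in KO uteri. The medians were then -0.14, -0.26, -0.23 and -0.17 for complexes I, III, IV and V. After quantile normalization 62 genes were below 0 too, with a median of -0.15 over the 71. The part of array brightness in the remaining differences was not tested.

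**Figure D5:**
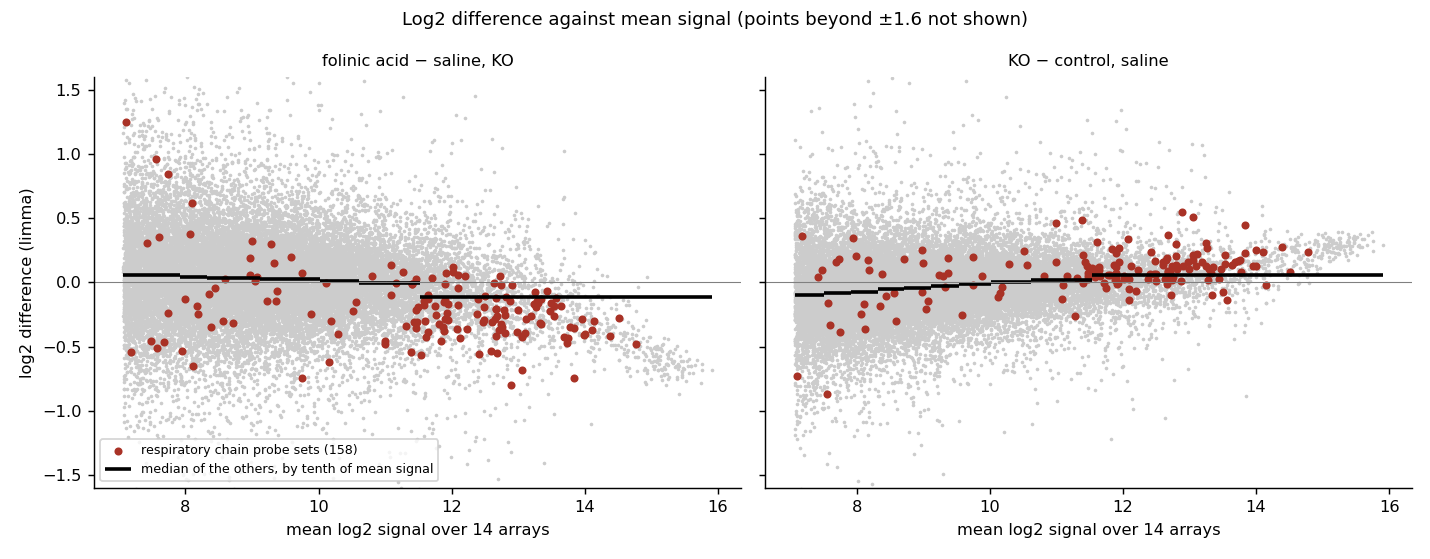
Fitted log2 difference of every tested probe set against its mean log2 signal, for folinic acid minus saline in KO uteri and for KO minus control under saline; red points are the 158 members and black steps the median of the other probe sets by decile of mean signal. In the brightest decile the others have medians of -0.12 and 0.06, and the members -0.26 and 0.11.

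Other genes of the pathway were counted from lists. No gene of these lists passed the threshold in any pairwise comparison. Of all genes tested, 49.8% were below 0 for folinic acid in KO uteri. After folinic acid in KO uteri, complex II (succinate dehydrogenase) had 3 of 4 genes above 0 with a median of 0.08. Cycs, the mobile cytochrome c that carries electrons from complex III to complex IV, was at -0.23, and Cyc1, the cytochrome c1 haem subunit of complex III, at -0.26. Mitochondrial ribosomal proteins, which translate the mitochondrial subunits, had 19 of 20 genes below 0 and a median of -0.22. The median was -0.24 after quantile normalization. Other assembly factors had 17 of 22 below 0 (median -0.10, and -0.13 after quantile normalization). Enzymes of the tricarboxylic acid cycle had 11 of 15 below 0, with a median of -0.12 that was -0.085 after quantile normalization and -0.046 relative to probe sets of like brightness. For glycolysis 8 of 11 were below 0, with medians of -0.14, -0.091 and -0.041 on the same scales. Of 13 genes encoded in mitochondrial DNA, 1 was in the table, ND5 of complex I (-0.45 ± 0.22).

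Of 12 regulators of respiratory genes, 11 were above 0 after folinic acid in KO uteri with a median of 0.21. In that comparison 49.8% of all genes tested were below 0. After quantile normalization 11 regulators were above 0 too. Gabpa, the DNA-binding subunit of GABP, was at 0.40 ± 0.18, Nrf1 at 0.29 ± 0.17 and the coactivator Ppargc1a at 0.41 ± 0.40, none past the adjusted threshold. The exception was Tfb1m (-0.31 ± 0.22), a mitochondrial rRNA methyltransferase. Ppargc1a was read from an _x_at probe set, the brightest of its 5. For KO against control under saline, which shares the KO saline arrays, 10 of the 12 regulators were below 0 (median -0.10).

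Markers of other cells were read in the same comparison. Macrophage markers (3 of 3 tested) were all higher in KO uteri after folinic acid, with a median of 1.04. Their summed signals were 2490, 4230 and 4630 on KO saline arrays and 15500, 3750, 5250 and 6640 on KO folinic acid arrays. Among the latter, replicate 1 was far the highest and replicate 2 lay inside the saline range. Macrophage sums were 3410 to 6570 on control saline and 4030 to 4890 on control folinic acid arrays. Stromal markers (5 of 5 tested) had 4 below 0 and a median of -0.49, with sums of 41500 to 58900 and 32900 to 42700 on the KO arrays and 45200 to 47500 and 36600 to 40200 on the control arrays. Epithelial markers (6 of 6 tested) had 5 below 0, with sums of 30000 to 34900 and 19800 to 34100 on the KO arrays and 22200 to 44600 and 23100 to 37500 on the control arrays. Smooth muscle markers (5 of 5 tested) had 3 below 0 and a median of -0.04, but all 5 were above 0 after quantile normalization, with a median of 0.24. Their sums were 107000, 134000 and 84200 on KO saline arrays and 80500, 113000, 82900 and 81000 on KO folinic acid arrays, and 83800 to 112000 and 67500 to 93800 on the control arrays. In the same order, complex I levels were 0.13, 0.20 and 0.05 on the KO saline arrays. On the KO folinic acid arrays they were -0.14, 0.14, -0.17 and -0.20. Control saline arrays had sums of 101000, 83800, 112000 and 84500 and complex I levels of 0.07, 0.06, -0.10 and 0.03. Control folinic acid arrays had sums of 67500, 93800 and 82400 and levels of -0.07, 0.03 and -0.06. No marker of these 4 lists was at 0, and none passed the adjusted threshold. Skeletal and cardiac muscle markers, of which 2 of 6 passed the filter, summed to 2020 to 3260 and 981 to 2760 on the KO arrays and to 1160 to 3610 and 1090 to 2890 on the control arrays. The erythroid list had 1 of 3 genes tested (Alas2, -0.81), with sums of 433 to 712 and 255 to 453 on the KO arrays and 425 to 1140 and 484 to 770 on the control arrays. Adipocyte sums varied within every group, from 274 to 21100 over the study. The part of cell composition in the subunit differences was not tested.

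RNA quality, read as the ratio of the 3′ to the 5′ actin control signal, was 2.11 to 3.01 on KO saline arrays and 1.54 to 3.12 on KO folinic acid arrays, and highest on control saline replicate 3, at 3.64. With its log2 as a covariate, no member passed the threshold in any comparison and 17 members were higher in KO under saline at an unadjusted p under 0.05 (10.8%, against 1.92% of all).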

How the data were processed

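Signals were measured on 14 one-colour Affymetrix Mouse Genome 430 2.0 arrays of uterine total RNA. The deposited values are linear intensity values, 1 per probe set, made by the authors with MAS5 per the submitters' processing notes (version not given in the sources used here). The mean trimmed by 2% at each end was 500.00 on every array, and 0.505% of values were raised to a floor of 1 before log2. Probe sets took their genes from the platform annotation, where 34945 had 1 symbol, 932 several and 9160 none. limma 3.58.1 in R 4.3.3 fitted the 4 group means over 22519 probe sets, with moderated variances that follow mean signal and 10 residual degrees of freedom. p-values were adjusted over all of these probe sets by the Benjamini-Hochberg method in each of 7 comparisons, with a threshold of 0.05. No chip-to-chip step was added. The number of arrays limits the precision. The fit was tested on simulated data with changes larger than the class medians given here. That test does not show how well differences of the size of these medians are found.

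Genes were named by a rule: members past the threshold in any comparison, the smallest p of each class in each pairwise comparison, and a set of core subunits and isoforms. Ndufab1, Ndufb11, Ndufa6, Ndufc1, Ndufs8, Atp5j2, Uqcrh and the pathway genes given with values were named after their values were seen. The members and lists were chosen with earlier results of these data known. Replicate numbers shared between groups were not used to pair the arrays in the main fit. Alternatives were another normalization, offset, filters, variance models, array weights, fits of fewer groups, a replicate block, an RNA quality covariate and each array left out.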

Additional observations from a re-analysis of the deposited data

Results flagged for a closer look

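Of 76 groups of 4 arrays looked at, 3 held an array apart from the others, where chance gives about 1 in 20. For complex I, KO folinic acid replicate 2 stood at a level of 0.14, with the others between -0.195 and -0.142. For complex III, control saline replicate 3 stood at -0.366, with the others between 0.0925 and 0.14. The Atp5c1 signal was 7110 on the same control array and 10800 to 11400 on the other 3. That array also had the highest actin ratio, 3.64, and the lowest array weight, 0.345, followed by KO folinic acid replicate 2 at 0.412. The part of RNA quality in these values was not tested.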

How the results depend on the processing

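Quantile normalization gave complex IV medians of -0.034 (folinic acid in controls), -0.12 (folinic acid in KO), 0.0095 (KO under saline) and -0.10 (folinic acid averaged), and complex V medians of -0.12 in KO and -0.033 averaged. It left 23 members lower at an unadjusted p under 0.05 after folinic acid in KO and 14 averaged, and 3 higher in KO under saline, where 19 subunit genes were below 0. It reversed Uqcrb in controls (0.0082) and Atp5h (0.022) and Cox6a1 (0.061) in KO. Relative to other probe sets of like brightness, chosen after seeing the data, the complex IV median in KO was -0.23 and 19 subunit genes were below 0 for KO under saline. The cause was not tested.

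Without a brightness filter 2 probe sets passed for folinic acid in KO, 3 for KO under saline, 2 for KO under folinic acid and 3 for genotype averaged. With the upper 35% of probe sets the assembly median in KO was -0.0027. Without a variance trend 4 members were higher in KO under saline at an unadjusted p under 0.05. With array weights 103 probe sets and 1 member passed for folinic acid in KO, and 245 and 3 averaged, where 60 members were lower at an unadjusted p under 0.05 (8.14% of all probe sets). The 3 were probe sets of Cox6c, Cox5b and Uqcrb. With these weights 15 members were higher (3.89% of all) and 19 subunit genes below 0 for KO under saline. Fitting only the groups compared gave 2 probe sets for KO under saline. The actin covariate gave 17 members higher for KO under saline (1.92% of all), and 2 probe sets for folinic acid averaged.

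Leaving out each array in turn gave 0 to 662 probe sets and 0 to 8 members past the threshold for folinic acid in KO, and 22 to 61 members lower at an unadjusted p under 0.05. Averaged over genotypes the ranges were 0 to 150 probe sets (118 without control folinic acid replicate 3) and 0 to 2 members. For KO under saline they were 1 to 2 probe sets, 2 to 9 members higher, 8 to 23 subunit genes below 0 and complex IV medians of 0.043 to 0.13, and for genotype averaged 1 to 2 probe sets. In controls, folinic acid medians ran from -0.11 to 0.12 for complex III and from -0.22 to -0.071 for complex IV. The Ndufa4l2 difference there ran from -1.22 to 0.15, the reversal coming without control folinic acid replicate 3. Correlations of same-numbered arrays ran from -0.186 to 0.354. With so few arrays per group they cannot show whether the numbers pair the arrays. With the replicate block 0 members passed and 35 were lower at an unadjusted p under 0.05 for folinic acid in KO (22.2%, against 6.11% of all). Of 3028 gene values recomputed, 4 with a size above their standard error reversed, and 109 within it changed sign.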
